A study of Mus musculus with 12 samples.

Results

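The platelet-derived growth factor (PDGF) ligands and receptors were examined in cultured mouse adventitial fibroblasts as the 7 rows named Pdgfa, Pdgfb, Pdgfc, Pdgfd, Pdgfra, Pdgfrb and Pdgfrl among the 54352 gene rows of the count table. They were chosen by gene name over all 12 libraries, and 4 of them encode ligands while 3 encode the receptors and a receptor-like protein. The fibroblasts were primary cultures of the adventitia, the outer layer of the vessel wall, from wild-type C57Bl/6 mice labelled as 14 weeks old. Ascending cultures were grown from the aortic root and ascending aorta, and descending cultures from the descending thoracic aorta as far as the renal arteries. In both cases cells grew out of cut adventitia of several mice and were passaged before treatment. Cultures of each vascular site were kept for 48 h with solute alone (control) or with mouse TGFβ at 10 ng/mL, which gave 4 groups of 3 libraries (ascending control, ascending TGFβ, descending control and descending TGFβ). The methods of the study give male mice and a younger age than the labels, and no source used here ties a replicate number to an animal, so p-values measure the spread between these cultures.

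PDGF chains act as disulphide-linked dimers that bring together receptor tyrosine kinases at the cell surface. Pdgfra and Pdgfrb encode the alpha and beta receptor chains. The A and C chains signal mainly through the alpha receptor, the D chain mainly through the beta receptor, and the B chain through both. The A and B chains are activated inside the cell by furin-like proprotein convertases, whereas C and D are secreted with a CUB domain that proteases such as tissue plasminogen activator or urokinase remove outside it. In the vessel wall, PDGF-B from endothelial cells recruits pericytes and smooth muscle cells that carry the beta receptor, while the alpha receptor is widely used to identify fibroblasts. Pdgfrl encodes a protein that resembles the ligand-binding part of the receptors and lacks a kinase domain.

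In the gene models of GENCODE vM21 (GRCm38, the build called mm10) the 7 genes lie on 6 chromosomes. The ligand genes are Pdgfa at chr5:138976014-138997370 on the minus strand, Pdgfb at chr15:79995874-80014977 on the minus strand, Pdgfc at chr3:81036416-81214040 on the plus strand and Pdgfd at chr9:6168584-6378850 on the plus strand. Pdgfra lies at chr5:75152292-75198215 on the plus strand, in a cluster with Kit and Kdr. Pdgfrb lies at chr18:61045150-61085061 on the plus strand, next to Csf1r, and Pdgfrl at chr8:40926212-40990785 on the plus strand. Pdgfa shares 21.3% of its 50-base exon sequences with the antisense gene 6330403L08Rik, which had 345 to 487 counts in 11 libraries and 111 in descending control replicate 3. The strand setting of the counting is not given in the sources used here, so reads from this shared part cannot be assigned to 1 of the 2 genes. For Pdgfra this share was 4.93% and for Pdgfc 1.95%, but their antisense partners Gm42802 and Gm16000 had at most 2 counts in any library, and for the other 4 genes it was below 1%.

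Values are given as normalized CPM, counts scaled to a common library size with TMM factors over the 12 libraries. Levels of different genes were compared only after division by the length of their merged exons (CPM per kb). Library totals ran from 16250126 to 23892943 counts. The descending control replicate 3 stood apart from the other 11 libraries, with 13031 genes that had a count, against 19337 to 20931, and 11% of its counts on mitochondrial genes, against 0.703% to 1.03%. Results for the PDGF genes and the other genes named that rest on it are given with and without it. All 8 fibroblast markers were detected, and their summed level lay between 13746 and 25384 normalized CPM in every library, most of it collagens I and III. In ascending fibroblasts 2 of the 8 rose with TGFβ, Col1a1 and Col1a2, and the other 6 fell, Col3a1 and Pi16 among them, at -1.0 and -1.07. In descending fibroblasts Col3a1 and Pi16 were at -0.08 and 0.04 and passed only without control replicate 3, at -0.26 each. Over all descending libraries, Col1a1 had a mean of 6263 normalized CPM in controls and 13630 with TGFβ, and Col1a2 4674 and 8513. These control means include replicate 3, and means of these 2 genes without it are not given here. With TGFβ, Dcn, Lum and Dpt were lower at both sites, at log2 fold changes of -1.21, -2.95 and -1.11 in ascending and -2.15, -3.01 and -0.91 in descending fibroblasts (-1.59, -3.01 and -0.99 without control replicate 3), each past the test. Thy1 was at -0.91 and -1.03, the latter past the test only without that library (-0.72). Their part in the changes of the PDGF genes was not tested. Of the 7 endothelial markers, Tie1 had no count in any library, Emcn had at most 3 counts and Pecam1 and Cdh5 at most 6, while Kdr had up to 34 and Tek up to 612. Of the 7 macrophage and other leukocyte markers, all had counts, and their sum was 357 normalized CPM in ascending control replicate 2, against 14.0 to 58.1 in the other 11 libraries.

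Of the 7 genes, 4 had an entry in the RefSeq promoter table (GRCm38.p6), and the 200 bases before the start are printed for 3 of them, which fell, rose and changed little with TGFβ (the values follow). Pdgfra stands for the fall (chr5:75152051-75152250, plus strand), Pdgfc for the rise (chr3:81036216-81036415, plus strand) and Pdgfd for the small change (chr9:6168286-6168485, plus strand). Capitals mark the letters GTCTG or their complement CAGAC, the short element that SMAD proteins of the TGFβ pathway can bind.
Pdgfra: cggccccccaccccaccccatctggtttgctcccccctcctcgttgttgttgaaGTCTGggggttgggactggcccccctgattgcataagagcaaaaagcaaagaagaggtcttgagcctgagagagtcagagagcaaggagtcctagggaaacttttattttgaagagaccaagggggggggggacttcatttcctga
Pdgfc: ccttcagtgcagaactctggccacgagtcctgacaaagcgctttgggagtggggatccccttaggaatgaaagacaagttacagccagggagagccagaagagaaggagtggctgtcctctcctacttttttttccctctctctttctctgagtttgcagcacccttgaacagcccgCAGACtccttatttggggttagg
Pdgfd: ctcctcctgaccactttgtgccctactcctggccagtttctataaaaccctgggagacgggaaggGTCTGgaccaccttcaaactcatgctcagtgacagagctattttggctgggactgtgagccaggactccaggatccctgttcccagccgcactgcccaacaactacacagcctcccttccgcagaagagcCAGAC
One such element lay 146 bases before the start of Pdgfra and 1 lay 23 bases before that of Pdgfc, while Pdgfd held 2 of them, 135 and 5 bases before its start. Neither of the 2 RefSeq starts of Pdgfa had one in its window. Of 32851 promoter windows of the same length, 35.5% held the element on either strand. The AP-1 letters TGANTCA were in none of these windows and in 5.48% of all windows. The KLF letters CACCC occurred in the windows of Pdgfra, Pdgfc and Pdgfa and in 45.5% of all windows, and not in that of Pdgfd. These matches are descriptions of the letters and not of binding.

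Pdgfrb had the highest level of the family in all 4 groups and Pdgfb the lowest. In ascending control cultures the order per kb was Pdgfrb at 76.4 ± 2.83 (SD, n = 3), Pdgfd at 35.8 ± 1.70, Pdgfa at 21.2 ± 1.13, Pdgfra at 18.4 ± 0.40, Pdgfc at 3.53 ± 0.39, Pdgfrl at 1.59 ± 0.16 and Pdgfb at 0.457 ± 0.270 CPM per kb, and no neighbours in that order overlapped between libraries. In descending control cultures Pdgfra took the second place at 37.0 ± 0.87 CPM per kb, and Pdgfd and Pdgfa overlapped with their next higher neighbour unless replicate 3 was left out. With TGFβ, Pdgfra took the fifth place in ascending cultures at 5.51 ± 0.37 CPM per kb and the sixth in descending cultures at 8.45 ± 0.60, where it overlapped with Pdgfrl at 9.37 ± 0.80. Pdgfd and Pdgfa overlapped in ascending TGFβ cultures, at 32.2 ± 0.42 and 31.8 ± 1.48 CPM per kb.

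**Figure D1:**
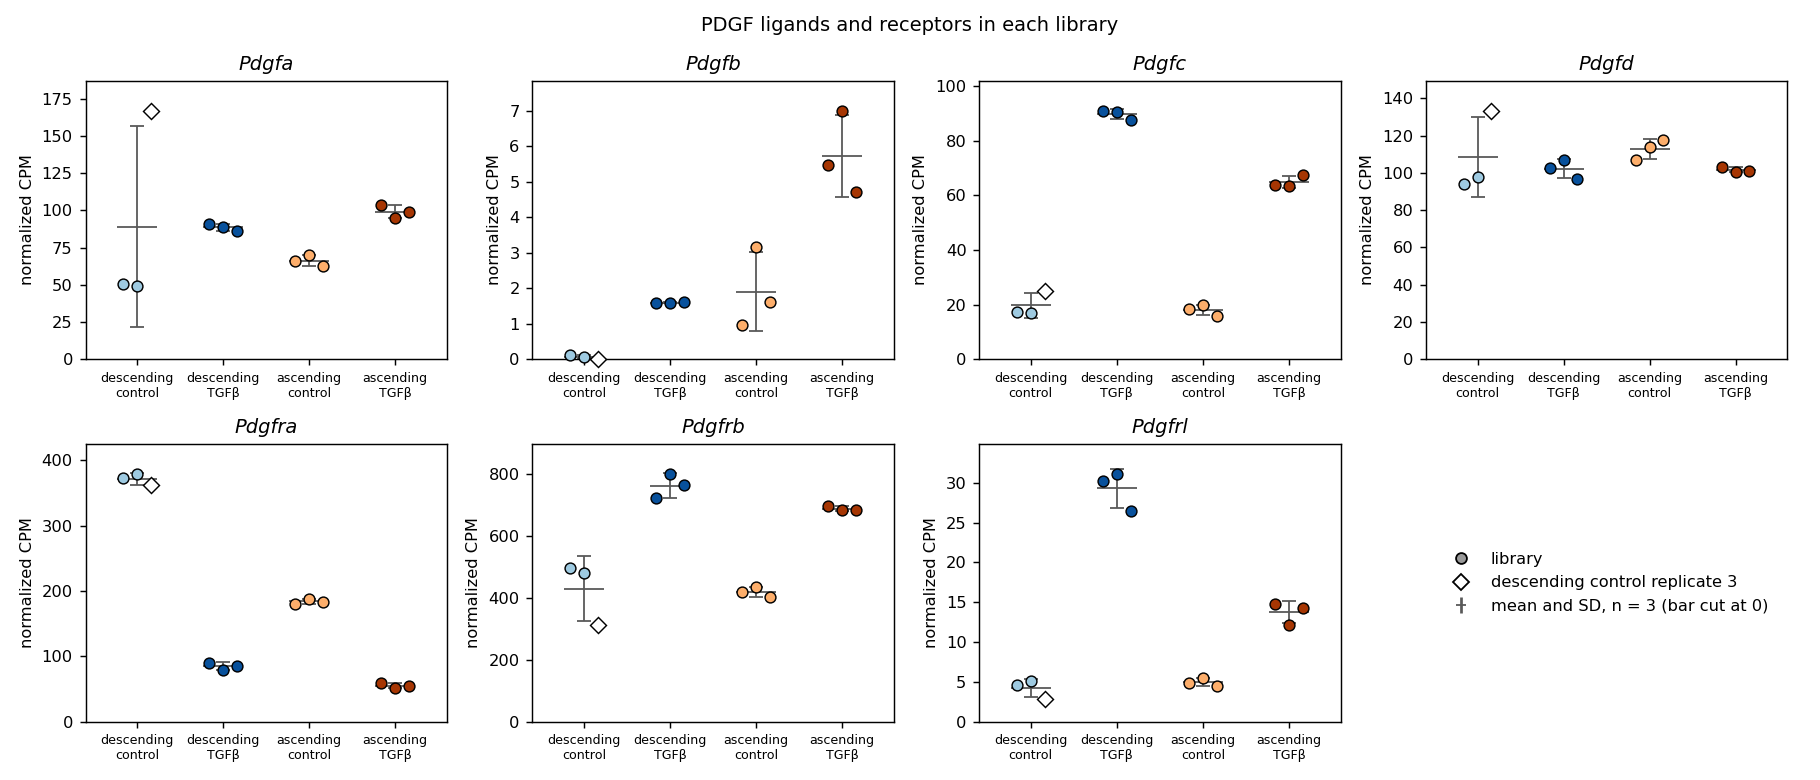
Normalized CPM of each PDGF gene in the 12 libraries, 1 panel per gene with its own axis from 0, by vascular site and treatment. Dots are libraries, the open diamond is descending control replicate 3, and the bars give mean and SD of 3 libraries, ending at 0. Pdgfra sits between 52.0 and 90.6 in the TGFβ libraries and between 180 and 380 in the controls, while Pdgfa in the open diamond reaches 167, above every other library.

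The first question was how TGFβ changed the family in fibroblasts of each vascular site. In ascending fibroblasts all 7 genes passed the test at an adjusted p under 0.05 (edgeR's quasi-likelihood test, Benjamini-Hochberg adjusted over 13917 genes), 5 higher and 2 lower with TGFβ. The alpha receptor fell and the beta receptor rose, the ligands A, B and C rose, and the ligand D fell slightly. Of all genes tested in this comparison 55.8% passed, and the count of 7 is to be read against that share. In size, the fold changes of Pdgfra, Pdgfb, Pdgfc and Pdgfrl exceeded those of 93.8% to 96.0% of the genes tested, that of Pdgfrb 81.3%, that of Pdgfa 75.6% and that of Pdgfd 30.9%.

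In descending fibroblasts, 4 of the 7 genes passed the test with all 3 controls, where 8.07% of 13825 genes did. Pdgfb, Pdgfc and Pdgfrl were higher and Pdgfra was lower with TGFβ. Without descending control replicate 3, 6 of the 7 genes passed, where 52.9% of 14311 genes did, with Pdgfa and Pdgfrb added to the higher ones. Pdgfb, which had to differ once it passed the filter on low counts, is 1 of the genes in both counts, and without it they are 3 and 5 of 6. The ascending and the descending comparison use their own controls and share no library. All 7 genes passed this filter in each comparison, Pdgfb in descending fibroblasts only through its TGFβ libraries and between the sites in control cultures only through its ascending ones.

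Pdgfra, the alpha receptor, fell at both sites. In ascending cultures it had 180, 188 and 183 normalized CPM in the 3 controls and 59.3, 52.0 and 54.3 with TGFβ. In descending cultures it had 372, 380 and 362 in the controls and 90.6, 78.5 and 85.2 with TGFβ. No TGFβ library overlapped with a control library of either site. The log2 fold change was -1.74 (SE 0.05, adjusted p = 9.96e-15) in ascending and -2.14 (SE 0.11, adjusted p = 0.000946) in descending fibroblasts, and -2.15 (SE 0.05) in the latter without control replicate 3, a library in which Pdgfra lay close to the other controls.

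Pdgfrb, the beta receptor, rose in ascending cultures. Its level was 418, 435 and 404 normalized CPM in the ascending controls and 697, 682 and 683 with TGFβ, a log2 fold change of 0.71 (SE 0.03, adjusted p = 6.07e-12). Descending controls had 497, 481 and 310 normalized CPM, the last in replicate 3, and descending TGFβ libraries had 721, 801 and 764. The groups did not overlap, but the log2 fold change of 0.82 (SE 0.20) did not pass the test with all controls (adjusted p = 0.0632, edgeR). Without replicate 3 it was 0.64 (SE 0.05) and passed (adjusted p = 5.87e-12), and over the 12 alternative settings the adjusted p ran from 5.87e-12 to 0.254. Some markers of mural cells moved with it. The summed level of the 6 smooth muscle markers was 1579 to 1692 normalized CPM in ascending controls and 5107 to 5193 with TGFβ, and 2509 to 2554 and 7960 to 8381 at the descending site. The sum of the 6 pericyte markers was 190 to 212 and 238 to 258 normalized CPM in ascending controls and ascending TGFβ libraries, and 136 to 319 (317 to 319 without replicate 3) and 474 to 538 in descending ones. Most of these sums was Acta2 and Cspg4, and single markers went the other way. Notch3 was lower with TGFβ by a log2 fold change of -1.82 in ascending and -1.31 in descending fibroblasts (-1.56 without control replicate 3). Myh11 was lower in ascending fibroblasts at -0.63, and in descending ones it was at 0.38, which did not pass, and at 0.77 without control replicate 3, which did. The pericyte markers Kcnj8 and Higd1b had at most 3 counts in every library. The part of these marker genes in the change of Pdgfrb was not tested, and fewer cells of a type cannot be told apart from less RNA per cell in such bulk libraries.

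Pdgfrl, the receptor-like gene, rose at both sites from a low level. Its level was 4.87, 5.49 and 4.53 normalized CPM in ascending controls and 14.7, 12.2 and 14.3 with TGFβ, and 4.67, 5.07 and 2.90 in descending controls and 30.3, 31.2 and 26.5 with TGFβ. Control and TGFβ libraries did not overlap at either site, and the descending TGFβ libraries lay above all others. The log2 fold change was 1.46 (SE 0.12, adjusted p = 3.15e-08) in ascending and 2.78 (SE 0.25, adjusted p = 0.00333) in descending fibroblasts, and 2.59 (SE 0.11) in the latter without control replicate 3.

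Among the ligands, Pdgfc had the largest change in normalized CPM. This ligand of the alpha receptor had 18.4, 19.7 and 15.8 normalized CPM in ascending controls and 64.0, 63.4 and 67.4 with TGFβ. In descending cultures it had 17.3, 17.0 and 25.1 in the controls, the last in replicate 3, and 91.1, 90.8 and 87.8 with TGFβ. No control library reached a TGFβ library of either site. The log2 fold change was 1.85 (SE 0.07, adjusted p = 3.9e-13) in ascending and 2.18 (SE 0.19, adjusted p = 0.00324) in descending fibroblasts, and 2.39 (SE 0.07) in the latter without replicate 3.

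Pdgfb, which encodes the B chain that binds both receptors, was the least abundant member. In descending controls it had 3, 1 and 0 counts in the 3 libraries, and 31, 29 and 34 counts with TGFβ. These correspond to 0.117, 0.0433 and 0 normalized CPM in the descending controls and to 1.57 to 1.61 with TGFβ. The ratio of the summed counts, scaled to library size, was 25.1 (95% exact interval 9.49 to 94.1, counting error only) and 19.4 (7.32 to 72.5) without control replicate 3. The fitted log2 fold change was 4.60 (SE 0.85, adjusted p = 0.0284), but its size depends on the prior count used in the fit, and since the gene passed the filter only through the libraries where it is high, its call is given as a description. The call was lost when any one of the other 5 descending libraries was left out (adjusted p 0.0632 to 0.168, edgeR), and it was kept without control replicate 3. Over the 11 alternatives that could be fitted the adjusted p ran from 2.58e-07 to 0.187. In ascending cultures Pdgfb had 0.956, 3.15 and 1.61 normalized CPM in the controls and 5.48, 7.0 and 4.72 with TGFβ, a log2 fold change of 1.60 (SE 0.30, adjusted p = 0.000207). The ascending groups did not overlap. The control with the highest Pdgfb, replicate 2, was also the library with the leukocyte marker sum of 357 normalized CPM, and without it the log2 fold change was 2.17 (SE 0.25). The 7 endothelial markers, whose cells are a main source of this ligand in vessels, summed to 24.4 to 27.9 normalized CPM in ascending controls and to 4.86 to 5.72 with TGFβ, and to 23.9 to 26.8 and 9.64 to 11.3 at the descending site. Most of it was Tek, while Tie1 was at 0 and Kdr did not go down with the sum, at log2 fold changes of 0.05 in ascending and 1.54 in descending fibroblasts, neither of which passed (1.02 without control replicate 3, which did). The part of these markers in the changes of Pdgfb was not tested.

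Pdgfa, a ligand of the alpha receptor, rose in ascending cultures from 65.9, 69.8 and 62.8 normalized CPM in the controls to 104, 94.6 and 99.1 with TGFβ, without overlap. The log2 fold change was 0.58 (SE 0.05, adjusted p = 3.89e-08). In a fit of the 12 libraries together it was not called (adjusted p = 0.401, against 1.57e-33 to 0.401 over the 12 alternatives). In descending cultures the result rested on 1 library. Controls had 50.4, 49.3 and 167 normalized CPM, the last in replicate 3, and TGFβ libraries had 91.0, 88.8 and 86.2. With all controls the log2 fold change was -0.01 (SE 0.51, adjusted p = 0.991), with a 95% interval of -1.25 to 1.22, and without replicate 3 it was 0.83 (SE 0.06, adjusted p = 6.25e-13). The adjusted p ran from 6.25e-13 to 1 over the 12 alternatives, and the call was made in 1 of them.

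Pdgfd, the ligand of the beta receptor, had the most even level of the family. Ascending controls had 107, 114 and 118 normalized CPM and ascending TGFβ libraries 103, 101 and 101. The difference was small but without overlap, with a log2 fold change of -0.16 (SE 0.04, adjusted p = 0.00507), which was not called in a fit of the 12 libraries together (adjusted p = 0.527, against 0.0009 to 0.527 over the 12 alternatives). Descending controls had 94.0, 98.0 and 133 normalized CPM and descending TGFβ libraries 102, 107 and 96.8, which overlapped. The log2 fold change there was -0.10 (SE 0.17, adjusted p = 0.778, edgeR) and, without control replicate 3, 0.09 (SE 0.06), with a 95% interval of -0.02 to 0.21.

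**Figure D2:**
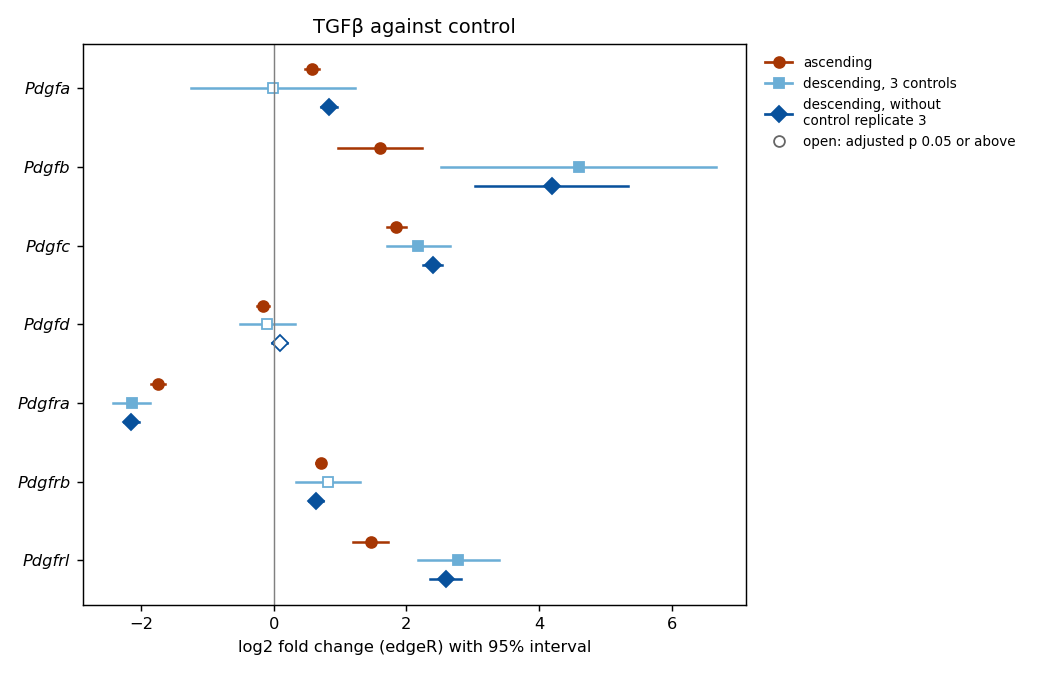
Log2 fold change of each PDGF gene with TGFβ against control, with 95% intervals from edgeR, for ascending fibroblasts, descending fibroblasts with 3 controls, and descending fibroblasts without control replicate 3. Filled symbols passed an adjusted p of 0.05. Pdgfra lies at -1.74 to -2.15 in the 3 fits and Pdgfc at 1.85 to 2.39, while the interval of Pdgfa in descending fibroblasts spans 0 until replicate 3 is left out.

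The opposite movement of the 2 receptors changed their balance within each library. The log2 ratio of Pdgfra to Pdgfrb, per kb of exon, was -2.06 ± 0.04 (SD, n = 3) in ascending controls and -4.51 ± 0.08 with TGFβ. At the descending site it was -1.05 ± 0.35 in controls and -4.04 ± 0.18 with TGFβ. In descending controls the libraries had -1.29, -1.21 and -0.65, and the mean without replicate 3, the last, was -1.25. Thus the beta receptor transcript was 4.16 times the alpha receptor transcript in ascending controls and 22.8 times with TGFβ, and 2.07 times (2.38 without replicate 3) and 16.5 times at the descending site. The TGFβ and control libraries did not overlap at either site, and neither did the sites within a treatment. The summed level of both receptors per kb was 94.8 ± 3.11 CPM per kb in ascending controls and 131 ± 1.92 with TGFβ, and 115 ± 19.6 (127 ± 1.54 without replicate 3) and 147 ± 6.71 at the descending site. These ratios are a description and were not tested.

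The makeup of the 4 ligands also shifted, again as a description per kb of exon. Pdgfc made up 5.79% ± 0.59 (SD, n = 3) of the ligand transcripts in ascending controls and 16.3% ± 0.59 with TGFβ, and 6.14% ± 1.08 (6.76% ± 0.16 without replicate 3) and 22.4% ± 0.29 at the descending site. Pdgfd made up 58.7% ± 2.20 and 41.2% ± 0.47 in ascending controls and ascending TGFβ libraries, and 54.7% ± 11.1 (61.1% ± 1.04 without replicate 3) and 41.1% ± 0.91 in descending ones. Pdgfa held 34.8% ± 1.52 and 40.7% ± 0.98 at the ascending site, and 39.1% ± 12.2 (32.1% ± 0.86 without replicate 3) and 36.1% ± 0.64 at the descending site. Pdgfb stayed below 2.3% in every library. Its highest share was 2.20%, in an ascending TGFβ library.

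**Figure D3:**
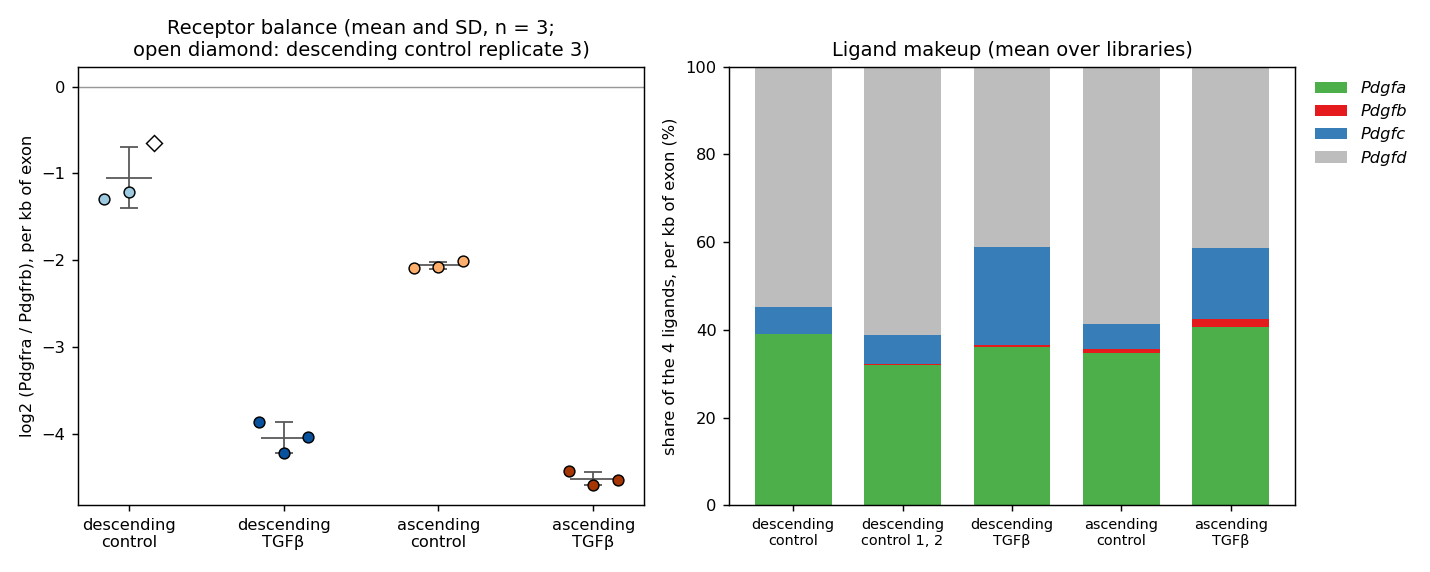
Left, log2 ratio of Pdgfra to Pdgfrb per kb of exon in each library, with mean and SD of 3 libraries per group and descending control replicate 3 as an open diamond. Right, mean share (%) of each ligand among the 4 ligand transcripts per kb, with descending controls shown with and without replicate 3. The balance lies at -3.86 or lower in every TGFβ library and at -2.08 or higher in every control.

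The second question was whether the family differed between ascending and descending fibroblasts. In control cultures, 1 of the 7 genes passed the test, where 2.65% of 14090 genes did. This was Pdgfra, which was lower in ascending fibroblasts. Its controls had 180 to 188 normalized CPM at the ascending site and 362 to 380 at the descending site, without overlap, and the log2 fold change was -1.01 (SE 0.10, adjusted p = 0.00784). The call was lost without descending control replicate 2 or without any of the 3 ascending controls (adjusted p 0.0588 to 0.107, against 9.76e-18 to 0.138 over the 12 alternatives, edgeR and DESeq2), while the log2 fold change lay between -1.02 and -0.99 in all of them.

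Without descending control replicate 3, 5 of the 7 genes passed in control cultures, where 31.6% of 14644 genes did, 3 higher and 2 lower in ascending fibroblasts. Pdgfb, which passed the filter only through the ascending libraries, is 1 of the higher ones, and without it the count is 4 of 6. Pdgfra had a log2 fold change of -1.02 (SE 0.04), and Pdgfrb of -0.21 (SE 0.04), against -0.03 (SE 0.19), which did not pass, with all controls. Pdgfa was higher in ascending fibroblasts by 0.42 (SE 0.06) and Pdgfd by 0.24 (SE 0.05) on the log2 scale, whereas with all controls Pdgfa was at -0.42 (SE 0.51) and Pdgfd at 0.06 (SE 0.17), neither of which passed. Pdgfc and Pdgfrl did not pass, at 0.08 (95% interval -0.13 to 0.29) and 0.04 (-0.32 to 0.40), nor did they with all controls, at -0.13 (SE 0.21) and 0.24 (SE 0.30).

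Pdgfb had the largest fold difference of the 7 genes between the sites in control cultures, with 22, 63 and 33 counts in the ascending and 3, 1 and 0 in the descending libraries. The ratio of summed counts, scaled to library size, was 29.4 (95% exact interval 11.2 to 110, counting error only), and 22.6 (8.61 to 84.4) without descending control replicate 3. The groups did not overlap, but with all controls the fitted log2 fold change of 4.87 (SE 0.98) did not pass (adjusted p = 0.0742, edgeR). As a description, since the gene passed the filter only through the ascending libraries, it was 4.45 (SE 0.70, adjusted p = 0.00025) without descending control replicate 3, and the adjusted p ran from 0.000105 to 0.409 over the 11 alternatives that could be fitted. The summed leukocyte markers also differed, with 54.6 to 357 normalized CPM in ascending and 25.5 to 47.3 in descending controls (39.9 to 47.3 without replicate 3). Likewise the mesothelial markers summed to 30.0 to 40.0 and 0 to 1.69 (1.13 to 1.69 without descending replicate 3). The adipocyte markers summed to 0.912 to 4.99 and 22.4 to 30.6 (22.4 to 28.9 without it). Smooth muscle markers summed to 1579 to 1692 in ascending and 2509 to 2554 in descending controls. Fibroblast markers summed to 15615 to 16446 and 13746 to 14523 (14382 to 14523 without descending replicate 3). Single fibroblast markers went in both directions, such as Col3a1 with means of 4871 and 1733 and Thy1 with 614 and 1247, replicate 3 included. The part of these markers in the differences between the sites was not tested. The Pdgfb difference without ascending control replicate 2, the library with 357, was 4.33 (SE 1.19) on the log2 scale.

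With TGFβ, 6 of the 7 genes passed the test between sites, where 36.3% of 13678 genes did, and descending control replicate 3 is not part of this comparison. Pdgfb and Pdgfa were higher in ascending fibroblasts, and Pdgfc, Pdgfra, Pdgfrb and Pdgfrl were lower. For Pdgfb the libraries had 4.72 to 7.0 normalized CPM at the ascending and 1.57 to 1.61 at the descending site, a log2 fold change of 1.85 (SE 0.20, adjusted p = 1.23e-08). For Pdgfrl they had 12.2 to 14.7 and 26.5 to 31.2 normalized CPM, a log2 fold change of -1.09 (SE 0.09, adjusted p = 1.94e-11). For Pdgfra they had 52.0 to 59.3 and 78.5 to 90.6, a log2 fold change of -0.62 (SE 0.06, adjusted p = 2.95e-10). None of these ranges overlapped.

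The remaining differences under TGFβ were smaller. Pdgfc was lower in ascending fibroblasts by a log2 fold change of -0.47 (SE 0.05, adjusted p = 1.84e-09), Pdgfrb by -0.15 (SE 0.04, adjusted p = 0.00274), and Pdgfa was higher by 0.16 (SE 0.05, adjusted p = 0.00552). Without ascending TGFβ replicate 1 the last call was lost (adjusted p = 0.0579, against 0.0032 to 1.00 over the 12 alternatives). Pdgfd did not pass, with a log2 fold change of -0.00 and a 95% interval of -0.10 to 0.09. In a fit of the 12 libraries together 3 genes passed, namely Pdgfb, Pdgfra and Pdgfrl, where 7.56% of 14637 genes did. Leukocyte markers summed to 29.8 to 42.7 normalized CPM in ascending and 14.0 to 27.1 in descending TGFβ libraries, mesothelial markers to 16.3 to 23.1 and 0.612 to 1.14, and adipocyte markers to 0.0473 to 0.574 and 9.74 to 18.5. Smooth muscle markers summed to 5107 to 5193 in ascending and 7960 to 8381 in descending TGFβ libraries, pericyte markers to 238 to 258 and 474 to 538, and endothelial markers to 4.86 to 5.72 and 9.64 to 11.3. The part of these markers in the site differences under TGFβ was not tested.

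**Figure D4:**
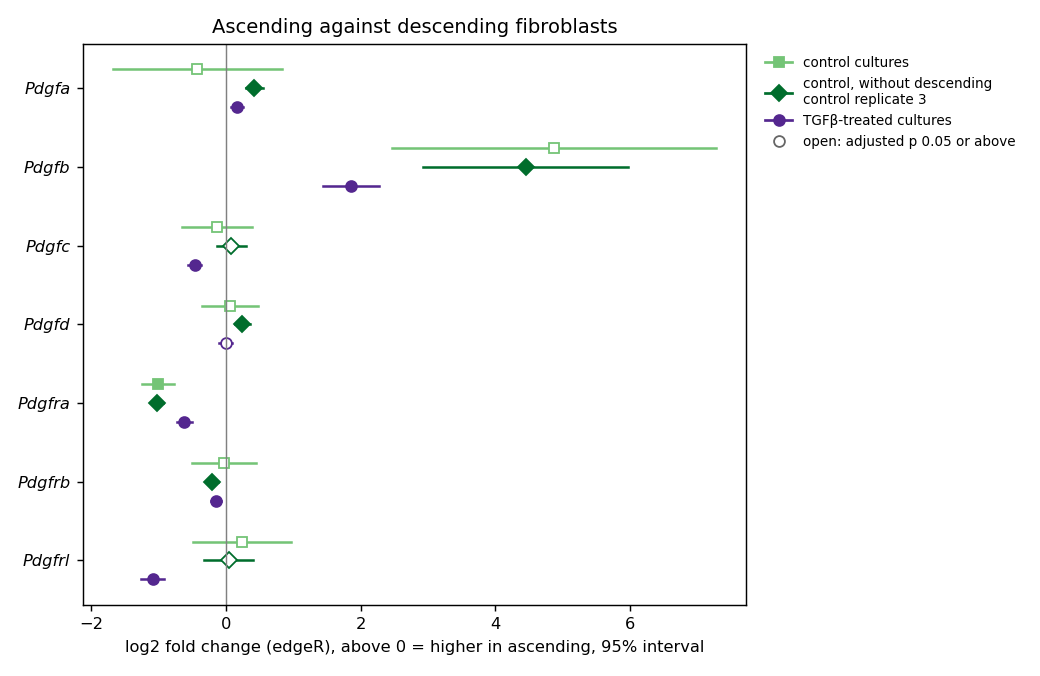
Log2 fold change of each PDGF gene between ascending and descending fibroblasts, above 0 where ascending is higher, with 95% intervals from edgeR, for control cultures, control cultures without descending control replicate 3, and TGFβ-treated cultures. Filled symbols passed an adjusted p of 0.05. Pdgfra lies below 0 in all 3 fits, at -1.01, -1.02 and -0.62, and Pdgfb above 0, at 4.87, 4.45 and 1.85.

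The third question was whether the response to TGFβ itself differed between the sites, which the interaction of site and treatment tests over all 12 libraries. None of the 7 genes passed with edgeR, where 0.806% of 14637 genes did, although 3 of them had an unadjusted p under 0.05. DESeq2's Wald test called 3 genes, Pdgfb, Pdgfra and Pdgfrl, where it called 2.87% of the genes it tested. The call of Pdgfb rests on 4 counts in the descending controls and is given as a description. The rise of Pdgfrl was smaller in ascending than in descending fibroblasts by 1.32 on the log2 scale (interaction -1.32, SE 0.27, adjusted p = 0.0603, edgeR). The interaction of Pdgfb was -2.97 (SE 0.80, adjusted p = 0.162), and that of Pdgfra, whose fall was smaller in ascending fibroblasts, was 0.39 (SE 0.11, adjusted p = 0.187).

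Without descending control replicate 3, 6 of the 7 genes passed the interaction test, where 13.5% of 15013 genes did. Pdgfb, which passed the filter on low counts only through its other groups, is 1 of the 6, and its pass is given as a description. Pdgfrl had an interaction of -1.12 (SE 0.17), Pdgfc of -0.54 (SE 0.10), Pdgfa of -0.25 (SE 0.07) and Pdgfd of -0.24 (SE 0.07), each a more negative or less positive change in ascending fibroblasts. Pdgfb had -2.58 (SE 0.76), which rests on 4 counts in the descending controls. Pdgfra had 0.41 (SE 0.07). Pdgfrb did not pass, with 0.07 and a 95% interval of -0.05 to 0.19. With all libraries Pdgfa was at 0.58 (SE 0.54) instead, so its direction turned with that 1 library, while Pdgfc was at -0.33 (SE 0.20), Pdgfd at -0.07 (SE 0.17) and Pdgfrb at -0.11 (SE 0.21).

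The genes whose log2 CPM followed 6 of the members most closely over the 12 libraries were named by the highest Pearson's r among 11433 genes (11434 for Pdgfb), as a description, since all genes share the same libraries, groups and depth. For Pdgfra these were Col6a1 (r = 0.997), a collagen VI chain, Cdc42ep3 (0.992) and Eps8 (0.991). For Pdgfc they were Nedd9 (0.995), Loxl2 (0.992), a lysyl oxidase-like enzyme, and Col1a1 (0.990), the main collagen I chain. For Pdgfrb they were Zdhhc16, Actb and Btg1 (0.991 to 0.989), and for Pdgfrl Cers6, Myl9 and Atf4 (0.991 to 0.989). Pdgfb was followed by P4ha1, Ttll7 and Mical2 (0.975 to 0.969), and Pdgfd by Fam213a, Ccdc181 and Raph1 (0.942 to 0.933). Without descending control replicate 3, Pdgfra kept 2 of its 3 genes (Col6a1 and Cdc42ep3), Pdgfb, Pdgfc, Pdgfd and Pdgfrl kept 1 each, and Pdgfrb kept 0. Between members, r over the 12 libraries was highest for Pdgfrb with Pdgfrl (0.946) and lowest for Pdgfra with Pdgfb (-0.886), but without that library, over 11, it was highest for Pdgfc with Pdgfrl (0.973) and lowest for Pdgfa with Pdgfra (-0.983).

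Other genes of the pathway were taken from 3 lists. In ascending fibroblasts 7 of 11 genes for ligand processing and binding passed with TGFβ, 3 higher and 4 lower, where 55.8% of all genes passed, with a median log2 fold change of -0.10, beside -0.00 for all genes tested. Of the proteases known to release the CUB domain of the C or D chain, Plat and Plau fell, and St14, matriptase, was at -0.29 (SE 0.22) and did not pass. Plat, tissue plasminogen activator, went from 19.7 ± 0.30 to 3.75 ± 0.49 normalized CPM (SD, n = 3), a log2 fold change of -2.40 (SE 0.11, adjusted p = 9.01e-12), and Plau, urokinase, from 22.5 ± 1.73 to 5.19 ± 0.80, a log2 fold change of -2.13 (SE 0.11). Pcsk6, a proprotein convertase, fell by 0.87 on the log2 scale (SE 0.04). Furin, the convertase that processes the A and B chains, rose by 0.64 (SE 0.04), as did Sparc, a matrix protein that can bind PDGF, by 0.36 (SE 0.02) and Lrp1, an endocytic receptor, by 0.16 (SE 0.05). The call of Lrp1 was made in 7 of 12 alternatives.

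In descending fibroblasts 3 of these 11 genes passed with all controls, where 8.07% of all genes did, with a list median of 0.16 beside 0.02 for all genes. Plau was at -3.16 (SE 0.23) with all controls and at -3.32 without control replicate 3, and was called in 12 of 12 alternatives. Nrp1 was at -1.20 (SE 0.11) and -1.19, called in 10 of 12, and Sparc at 0.70 (SE 0.10) and 0.66, called in 5 of 12 (adjusted p 4.21e-13 to 0.0988). Plat was at -2.24 (SE 0.69) with all controls, which did not pass (adjusted p = 0.116, edgeR), and at -2.69 (SE 0.17) without control replicate 3, which did. Furin (0.96 and 0.65), Lrp1 (0.71 and 0.47) and Pcsk6 (-0.49 and -0.77) likewise passed only without that library, and St14 (-0.41 and -0.38) in neither fit. Without control replicate 3, 9 passed, 5 higher and 4 lower, where 52.9% of all genes did, and the list median was -0.13. Between sites 2 passed in control cultures, where 2.65% of all genes did. Pcsk6 was higher in ascending fibroblasts by 2.01 (SE 0.32), by 1.73 without descending control replicate 3, and was called in 6 of 12 alternatives (adjusted p 7.09e-11 to 0.195). Plau was lower by a log2 fold change of -1.14 (SE 0.20), and of -1.31 without that library, and was called in 5 of 12 (adjusted p 4.84e-09 to 0.308). With TGFβ 7 passed, 4 higher and 3 lower in ascending fibroblasts, where 36.3% of all genes did.

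Nrp1 was the only list gene with an interaction that passed with all libraries, where 0.806% of 14637 genes did. It was named after its values were seen. It encodes neuropilin-1, a co-receptor for VEGF that can also bind PDGF ligands. Its level was 93.4 ± 2.81 normalized CPM in ascending controls and 69.3 ± 2.22 with TGFβ, and 112 ± 4.96 and 49.3 ± 2.57 at the descending site (SD, n = 3). The log2 fold change with TGFβ was -0.44 (SE 0.04) in ascending and -1.20 (SE 0.11) in descending fibroblasts, and the interaction was 0.76 (SE 0.11, adjusted p = 0.0111, edgeR), as it was without descending control replicate 3.

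Receptor-proximal signalling genes moved in both directions. In ascending fibroblasts 18 of 23 passed with TGFβ, 10 higher and 8 lower, where 55.8% of all genes passed, with a median log2 fold change of 0.04. Pik3cb, a catalytic subunit of PI3-kinase, rose by 1.63 (SE 0.06) and Pik3r1, its regulatory subunit p85α, fell by 1.10 on the log2 scale (SE 0.07). Rasa1, the RAS GTPase-activating protein that docks on the beta receptor, rose by 0.76 (SE 0.05) and the adaptor Crk by 0.20 (SE 0.04), while Jak1 fell by 0.59 and the adaptor Shc1 by 0.42. In descending fibroblasts 3 passed with all controls, where 8.07% of all genes did, and 10 without control replicate 3, 5 higher and 5 lower, where 52.9% did. Pik3cb was at 1.47 (SE 0.27) with all controls and at 1.82 without replicate 3, and was called in 6 of 12 alternatives (adjusted p 3.59e-17 to 0.136). Pik3r1 was at -2.51 (SE 0.49) and -1.78, called in 7 of 12 (adjusted p 1.55e-19 to 0.171), and Jak1 at -0.97 (SE 0.15) and -0.82, also called in 7 (adjusted p 2.92e-14 to 0.126). Rasa1 turned direction with that library, at -0.45 (SE 0.43) with all controls, which did not pass, and at 0.24 (SE 0.06) without it, which did. Shc1 was at -0.34 and -0.51 and passed only without the library, and Crk, at 0.21 and 0.08, passed in neither fit. In control cultures 1 gene differed between sites, where 2.65% of all genes did. This was the adaptor Shb, named after its values were seen, which was higher in ascending fibroblasts by 1.03 (SE 0.17), or 0.91 without descending control replicate 3, and was called in 5 of 12 alternatives (adjusted p 1.81e-06 to 0.279). With TGFβ 10 of these genes differed, 7 higher and 3 lower, where 36.3% of all genes did.

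Of 9 genes for receptor dephosphorylation and turnover 8 were tested in ascending fibroblasts and 5 passed, 4 higher and 1 lower, where 55.8% of all genes passed, with a median of 0.17. The ubiquitin ligases Cblb and Cbl, which direct activated receptors to degradation, rose by 0.72 (SE 0.06) and 0.33 (SE 0.07), and the phosphatase Acp1 by 0.20 (SE 0.05). Slc9a3r1, a scaffold protein, fell by 1.15 on the log2 scale (SE 0.09). In descending fibroblasts 0 of 8 passed with all controls in edgeR, where 8.07% of all genes did. An unadjusted p under 0.05 was found for 2, a threshold at which all genes were not counted. DESeq2 called 1, where it called 14.3% of the genes it tested. Without control replicate 3, 7 passed in edgeR, 4 higher and 3 lower, where 52.9% did. Cblb was at -0.67 (SE 0.33, adjusted p = 0.285, edgeR) with all controls and did not pass, and at -0.21 (SE 0.08) without control replicate 3, where it passed. Cbl (0.43 and 0.36), Acp1 (0.48 and 0.17) and Slc9a3r1 (-0.78 and -0.70) also passed only without that library. With TGFβ 3 genes of this list differed between the sites, 2 higher and 1 lower in ascending fibroblasts, where 36.3% of all genes did.

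**Figure D5:**
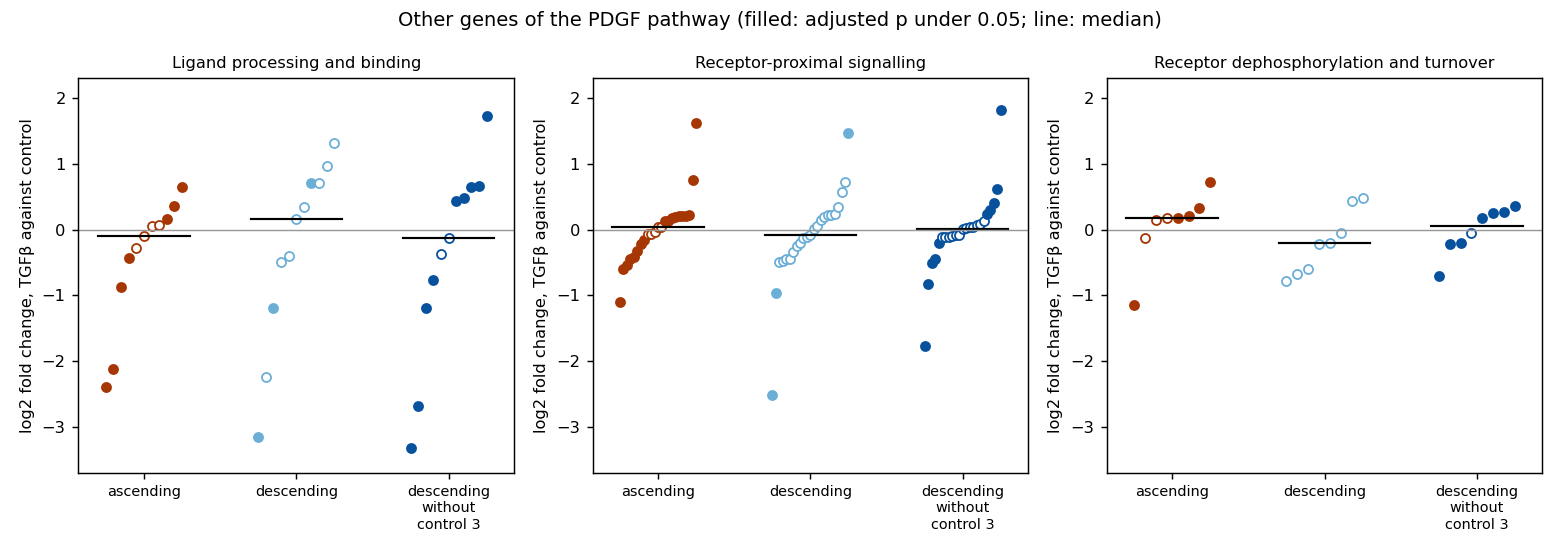
Log2 fold change with TGFβ of each gene tested from the 3 lists of other PDGF pathway genes, in ascending fibroblasts, descending fibroblasts, and descending fibroblasts without control replicate 3. Dots are genes, filled where the adjusted p was under 0.05, and the lines are list medians. The lowest points are Plat at -2.40 in ascending and Plau at -3.16 in descending fibroblasts with all controls, and the highest in ascending fibroblasts is Pik3cb at 1.63.

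Genes related to the PDGF family are given by their levels only, in normalized CPM. Of the other class III receptor tyrosine kinases, Flt3 had 0 counts in all libraries (3 counts, the limit that 0 allows, are 0.117 to 0.207 normalized CPM), Kit had at most 0.467 normalized CPM, and Csf1r, the macrophage growth factor receptor, had 1.31 to 14.6, with the highest value in ascending controls. Of the VEGF branch, Vegfd had 833 ± 25.7 normalized CPM in ascending controls and 151 ± 6.59 with TGFβ, and 949 ± 265 (797 ± 32.0 without replicate 3) and 152 ± 9.18 at the descending site. Vegfa had 144 ± 6.08 and 185 ± 2.54 at the ascending site and 219 ± 22.1 (231 ± 13.8 without replicate 3) and 370 ± 21.1 at the descending site. Vegfc had 26.3 ± 1.34 and 22.9 ± 1.49 at the ascending site and 7.06 ± 1.64 (8.01 ± 0.17 without replicate 3) and 17.3 ± 0.31 at the descending site (SD, n = 3). Vegfb had 36.3 to 38.4 normalized CPM in ascending controls and 20.6 to 23.3 with TGFβ. At the descending site it had 25.2 to 37.5 (36.1 to 37.5 without replicate 3) and 23.1 to 26.1. Pgf, which encodes placental growth factor, stayed at or below 3.26 normalized CPM.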

How the data were processed

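RNA of 12 cultures was sequenced as paired-end reads. According to the submitters' processing notes, reads were checked with FastQC, aligned to mm10 with STAR and counted with featureCounts, and DESeq2 was used for testing. Their versions and the strand setting are not given in the sources used here. The deposited values are raw counts per gene symbol, whole numbers without normalization by the authors. Of the 54352 symbols, 53753 (98.9%) matched GENCODE vM21, and 22 names were bare numbers.

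Groups were taken from the sample labels, which carry a single batch. Counts were tested with edgeR 4.0.16 in R 4.3.3 (TMM, filterByExpr with a minimum count of 10 and a total of 15, quasi-likelihood F-test, two-sided) over all genes of the 2 groups compared, or over all 4 groups for the interaction, with Benjamini-Hochberg adjustment over all genes tested and a threshold of 0.05. SEs were derived from the log2 fold change and its F statistic. For genes under 3 counts a ratio with an exact 95% binomial interval was given, which covers only counting error, as amplified reads lacking molecular identifiers are not separate molecules. Likeness used log2 CPM with a prior count of 2.

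Members, lists and tests were chosen with earlier results of these data known. All 7 members were named in each of the 5 comparisons. From each list the called genes with the smallest adjusted p in the ascending TGFβ comparison were named, up to 3 per direction, and 3 genes most like each member (those of Pdgfa are not reported here). The alternatives were DESeq2 1.42.0 (Wald test, or its size factors in edgeR), no filter, at least 10 counts in every library, the replicate number as a block, a joint fit of the 12 libraries, and the omission of each library in turn. Simulated counts with known changes were used to test the scripts beforehand.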

Additional observations from a re-analysis of the deposited data

Results flagged for a closer look

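The response of Nrp1, a co-receptor gene of the ligand-binding list, differed between the sites by a test of the difference itself. Its log2 fold change with TGFβ was 0.76 higher (less negative) in ascending than in descending fibroblasts (interaction 0.76, SE 0.11, edgeR adjusted p = 0.0111 over 14637 genes), and all 3 TGFβ libraries of each site lay below the controls of that site. It was called in 11 of 17 alternatives, with an interaction of 0.73 to 0.80 and an adjusted p of 7.66e-09 to 0.0636. None of the 7 PDGF genes passed this test with all libraries. An unadjusted p under 0.05 was found for 3 of them, a threshold at which all genes were not counted. DESeq2 called 3, where it called 2.87% of the genes it tested. Pdgfb is among those DESeq2 called, as a description.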

How the results depend on the processing

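Of 452 alternative values of the members' log2 fold changes, 398 kept their direction and their side of the threshold, 18 lost the call, 17 gained it and 19 turned direction, and the cause was not tested. In ascending fibroblasts under TGFβ 0 turned. DESeq2's Wald test called 2242 genes (14.3% of those tested) for TGFβ in descending fibroblasts. Between sites in controls it called 1034 genes (6.27%) and 2 members, and in the interaction 419 genes (2.87%) and 3 members. Fitting the 12 libraries together called 2338 genes (16.0%) for TGFβ in ascending and 3570 (24.4%) in descending fibroblasts. Between sites it called 1545 genes (10.6%) and 2 members in controls, and 1106 genes (7.56%) and 3 members with TGFβ. In these counts Pdgfb is among the members between sites in controls and in the interaction, and its calls there are a description. Without a filter 56 genes had an interaction, and Pdgfa in descending fibroblasts was at 0.0248. With at least 10 counts in every library 1 of the 6 members tested, Pdgfrl, had an interaction, where 1.5% of 11211 genes did. Same-numbered libraries did not deviate together (r -0.03 to 0.09 over 18 pairs, beside -0.09 to 0.07 over 36 pairs of different numbers). With 3 libraries per group this cannot show whether the numbers pair the samples. With the replicate number as a block, 95 genes (0.687%) and 2 members, Pdgfra and Pdgfrl, passed for TGFβ in descending fibroblasts. There Pdgfc missed at an adjusted p of 0.0503 in edgeR, and Pdgfa was at 0.26. Between sites in controls 0 genes and 0 members passed with this block, and in the interaction 50 genes (0.342%) did.

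When single libraries were left out, the counts were 213 to 7576 genes (1.49% to 52.9% of those tested) for TGFβ in descending fibroblasts. Between sites in controls they were 33 to 4631 genes (0.226% to 31.6%) and 0 to 5 members. In the interaction they were 25 to 2022 genes (0.166% to 13.5%) and 0 to 6 members. The highest of each was reached without descending control replicate 3, with Pdgfb among the members counted between sites in controls and in the interaction, as a description. For TGFβ in descending fibroblasts Pdgfa ran from -0.30 to 0.83 and Pdgfd from -0.18 to 0.0910. Between sites in controls Pdgfa ran from -0.71 to 0.42, Pdgfc from -0.23 to 0.0815, Pdgfd from -0.0308 to 0.24 and Pdgfrb from -0.21 to 0.0882, and with TGFβ Pdgfd from -0.0450 to 0.0273. In the interaction Pdgfa ran from -0.25 to 0.87, Pdgfd from -0.24 to 0.0289 and Pdgfrb from -0.23 to 0.0721.

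Without division by exon length the receptor balance was -0.18 in descending controls, -3.17 with TGFβ, -1.19 in ascending controls and -3.64 with TGFβ, a constant shift. Single descending controls had -0.42, -0.34 and 0.22, the last in replicate 3. Depth limits Pdgfb, at 4 counts in all descending controls.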
